A study of Homo sapiens with 18 samples.

Results

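The nuclear-encoded subunits of the mitochondrial respiratory chain, complexes I to IV, were followed across 3 human mammary epithelial cell lines. The list held 52 genes, chosen by name: 30 of complex I, 4 of complex II, 7 of complex III and 11 of complex IV. A probe set naming a single gene measured 45 of them, out of 19775 genes measured on the array in that way. These 45 were 27 of complex I, 3 of complex II, 5 of complex III and 10 of complex IV. Probe sets of NDUFS5, NDUFS8, NDUFC2 and UQCRH name further genes and were not used, and NDUFA4, SDHB and UQCRFS1 have no probe set named for them in the annotation used here. Where a gene had several probe sets, the brightest was taken. All 45 lay above the floor on low values.

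The respiratory chain sits in the inner mitochondrial membrane. Complex I (NADH dehydrogenase) and complex II (succinate dehydrogenase) pass electrons to ubiquinone, complex III (the cytochrome bc1 complex) passes them to cytochrome c, and complex IV (cytochrome c oxidase) reduces oxygen. Complexes I, III and IV pump protons that drive ATP synthase. Except for a few core subunits made from mitochondrial DNA, their proteins are encoded in the nucleus, and the transcription factors NRF1, GABP, YY1 and the estrogen-related receptors are known to act at many of these genes.

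All cells derive from MCF10A, an immortalised, non-malignant human mammary epithelial line. MCF10A-CT is the control. All 3 lines shared a medium with horse serum, insulin, hydrocortisone, cholera toxin and EGF, to which BMP2 and IL6 were added for MC26 and M1B26. MC26 was grown with BMP2 and IL6 from unsorted MCF10A cells, and M1B26 was grown with the same factors from cells sorted for the BMP receptor BMPR1B and then passed through soft-agar clones, so it descends from few clones; the labels disagree on the dose of BMP2. Each line was profiled unsorted, frozen after trypsin treatment, and as CD10- and CD10+ cells sorted by flow cytometry, with 2 biological replicates in each of the 9 groups and 18 arrays in all. Values are log2(intensity + 1) of an Affymetrix array, and every difference below is on this log2 scale.

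The labels and the arrays were compared first. MME, which encodes CD10, had mean levels in CD10- and CD10+ cells of 3.52 and 5.83 in MCF10A-CT, 3.87 and 6.33 in MC26, and 4.96 and 10.15 in M1B26. The basal keratin KRT5 and the epithelial genes KRT18 and KRT8 were present in every group, while the leukocyte gene PTPRC and the endothelial genes CDH5 and VWF had mean levels of 2.53, 1.31 and 2.66, under the floor of 3.93. The leukocyte genes CD3E and CD14 had mean levels of 3.69 and 8.07 and the endothelial gene PECAM1 one of 5.32, with CD3E above the floor in 3 of the 9 groups. In M1B26 CD10+ cells the adhesion genes CDH1 and EPCAM were at 5.56 and 7.19, against 9.20 and 11.28 in M1B26 CD10- cells. KRT18 was also lower, at 11.51 against 12.42, whereas KRT8 was higher, at 10.80 against 9.86. The mesenchymal genes DCN (12.32 against 7.67), VIM (13.12 against 12.82) and COL1A1 (7.21 against 6.73) were higher in the CD10+ cells. Replicate arrays correlated at r = 0.938 to 0.954 over probe sets, which were not independent. Over all pairs of arrays r ran from 0.901 to 0.957, so arrays of different groups could correlate as closely as replicates. The first MC26 CD10+ array stood apart: the 45 respiratory genes averaged 10.72 on it and 11.10 on its partner, and all 12171 genes tested averaged 7.45 and 7.61.

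The promoter sequences of a few members are shown because NRF1 sites are a known feature of these genes and because UQCRC1, SDHA, NDUFA8 and SDHD each passed in a comparison below, SDHD after centring of arrays. RefSeq (GRCh38.p14) windows from 250 bases before to 50 bases after the start matched 43 of the 52 genes by symbol. The letters of an NRF1 site (GCGC, any base, TGCGC; either strand) were in 8 of these 43 windows (18.6%) and in 6.28% of all 27305 windows. They were in those of NDUFA3, NDUFA8, NDUFA9, NDUFB4, SDHA, SDHD, UQCRC1 and UQCRFS1. The ETS core bound by GABP (CCGGAAG) was in 13 windows of members (30.2%) and in 10.7% of all windows, with COX4I1, COX5B, COX6A1, COX6B1 and COX8A among the 13. The YY1 letters (AAG followed by ATGGCG) were in 7 windows (16.3%, against 1.85%), and those of an estrogen-related receptor site (TCAAG followed by GTCA) in the SDHD window alone (2.33%, against 0.359%). Median GC content was 61.0% in members and 58.3% over all windows, which bears on such GC-rich letters. These matches describe letters in a window and say nothing of binding. The 4 stretches below run 5′ to 3′ on the gene's strand, from 150 bases before to 20 bases after the start, with NRF1 letters on either strand in capitals. Overlapping matches share their capitals.
UQCRC1: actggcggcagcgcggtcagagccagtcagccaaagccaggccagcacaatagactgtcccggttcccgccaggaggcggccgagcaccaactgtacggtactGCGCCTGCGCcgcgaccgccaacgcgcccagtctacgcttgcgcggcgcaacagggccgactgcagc
SDHA: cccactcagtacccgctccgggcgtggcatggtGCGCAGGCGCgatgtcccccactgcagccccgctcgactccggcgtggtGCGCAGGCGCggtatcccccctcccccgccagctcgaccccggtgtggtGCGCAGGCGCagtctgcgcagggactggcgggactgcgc
SDHD: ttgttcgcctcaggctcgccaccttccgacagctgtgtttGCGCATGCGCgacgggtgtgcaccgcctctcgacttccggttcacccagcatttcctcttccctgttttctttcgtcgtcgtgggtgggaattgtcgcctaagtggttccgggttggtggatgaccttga
NDUFA8: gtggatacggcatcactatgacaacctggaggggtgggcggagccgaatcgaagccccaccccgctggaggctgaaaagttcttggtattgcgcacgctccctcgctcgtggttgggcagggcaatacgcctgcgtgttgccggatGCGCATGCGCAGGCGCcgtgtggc
UQCRC1 is on the minus strand at chr3:48609627-48609796, SDHA on the plus strand at chr5:218170-218339, SDHD on the plus strand at chr11:112086723-112086892 and NDUFA8 on the minus strand at chr9:122159760-122159929. UQCRC1 holds a single NRF1 match 47 bases before its start. SDHA shows 3 matches in this stretch, at 117, 68 and 19 bases before the start, and a further one lies at 166 bases. In NDUFA8 the letters straddle the start, and in SDHD they begin 110 bases before it.

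The respiratory genes were among the brightest on the array. Their mean levels ran from 9.22 for NDUFB7, an accessory subunit of complex I, to 12.56 for COX6C, a structural subunit of complex IV, which are the percentiles 85.5 and 99.3 of all genes measured. Levels of different genes depend on their probes and are not compared further. Within a gene, the 9 group means spanned from 0.18 for NDUFB4, a complex I accessory subunit, to 0.95 for UQCRC1, a core subunit of complex III. The widest spans in the other complexes were 0.93 for NDUFA8 in complex I, 0.90 for SDHC, a membrane anchor of complex II, and 0.59 for COX5B in complex IV. The narrowest were 0.46 for SDHD, 0.40 for CYC1 (cytochrome c1) and 0.32 for COX7B.

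**Figure D1:**
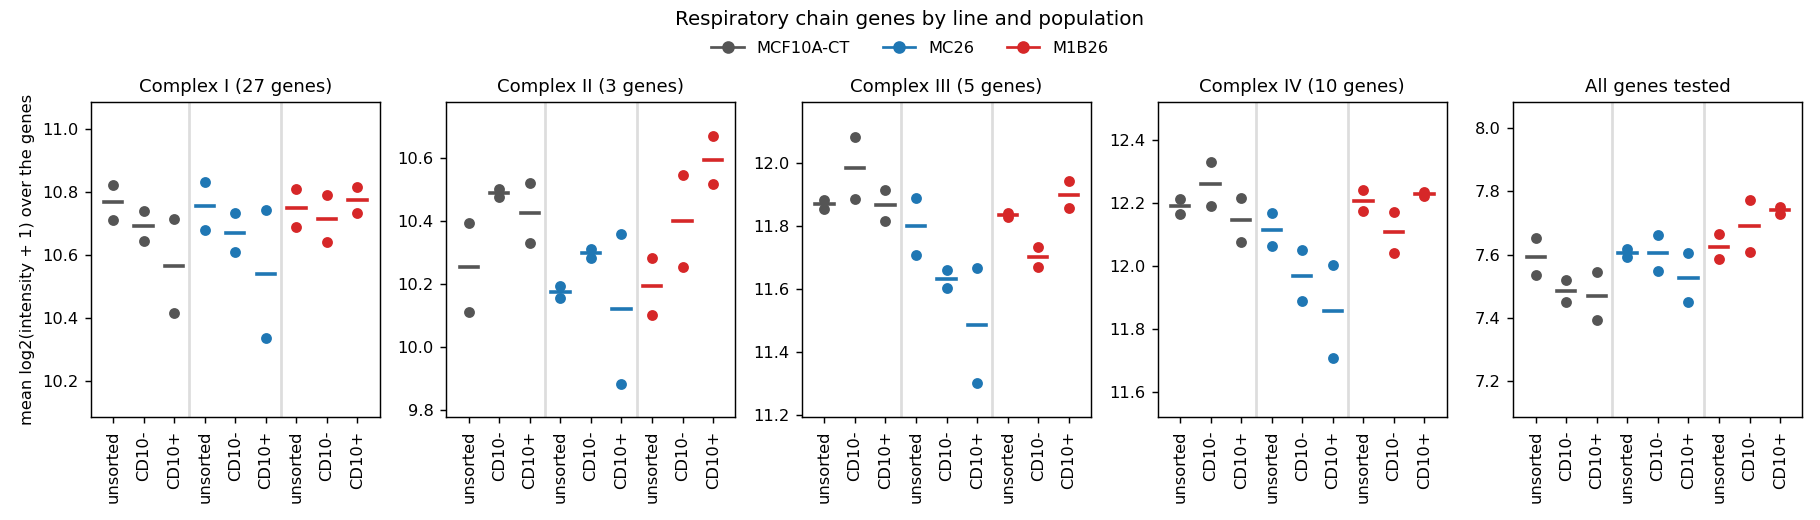
Mean log2(intensity + 1) over the genes of each complex, and over all 12171 genes tested, on each array; points are the 2 replicates and bars their mean, and every panel spans 1 log2 unit. Complex III and IV levels in MC26 CD10- and CD10+ cells lie below those of the same populations of MCF10A-CT, with replicates at 11.30 and 11.67 for complex III in MC26 CD10+ cells.

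In unsorted cells no respiratory gene passed the test between lines. The complex IV mean was 12.19 ± 0.03 in MCF10A-CT (SD, n = 2), 12.12 ± 0.07 (n = 2) for the MC26 line and 12.21 ± 0.05 (n = 2) for M1B26. None of the 45 genes passed the limma test (adjusted p under 0.05) in MC26 against MCF10A-CT, where 0.32% of all genes did. None passed in M1B26 against MCF10A-CT (0.674% of all genes) or in M1B26 against MC26 (0.0986%). No member had an unadjusted p under 0.05 in any of the 3, and an ordinary linear model called none either. The member medians were -0.03, -0.02 and 0.03, and those of all genes 0.02, 0.01 and -0.02. The smallest p-values belonged to genes that did not pass. In MC26 against MCF10A-CT these were SDHA, the flavoprotein of complex II (-0.41, SE 0.21, limma adjusted p = 0.680), UQCRC1 (-0.32, SE 0.19), NDUFS4 (0.32, SE 0.20) and NDUFS6 (-0.28, SE 0.18). In M1B26 they were NDUFS4, UQCRB, UQCRC1 and NDUFB10 against MCF10A-CT, with values from -0.26 to 0.30, and COX7C, NDUFA2, UQCRB and COX7A2 against MC26, with values from 0.17 to 0.24.

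Averaged over the 3 populations, 10 of 45 respiratory genes were lower in MC26 than in MCF10A-CT and none was higher. Of all genes tested, 11.5% were lower and 19.7% higher in this comparison. The genes that fell were 5 of 10 in complex IV (COX7C, COX6A1, COX5B, COX4I1 and COX6C), 2 of 5 in complex III (UQCRC1 and UQCRB), 1 of 3 in complex II (SDHA) and 2 of 27 in complex I (NDUFB5 and NDUFV1). All 5 complex III and all 10 complex IV genes had values below 0. The median difference was -0.24 in complex III, -0.21 in complex IV, -0.24 in complex II and -0.02 in complex I, against 0.08 over all genes. In bulk samples fewer cells of a type and less RNA per cell cannot be told apart. With replicate numbers as a random block 6 passed, all lower.

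UQCRC1, a core subunit of complex III, fell most. Its level was 11.35 and 11.81 in unsorted, 11.54 and 11.95 in CD10- and 11.52 and 11.54 in CD10+ MCF10A-CT cells. In MC26 it was 11.34 and 11.18, 11.04 and 11.03, and 10.56 and 11.04. The MC26 arrays lay below the MCF10A-CT arrays of the same population in all 3 populations. The averaged difference was -0.59 (SE 0.11, limma adjusted p = 0.00167), a level that fell by 33.5%. Within populations, comparisons added after the data were seen, 3 members were lower in CD10- cells (6.54% of all genes) and 3 in CD10+ cells (5.47%), and 0 higher in either. With centring 16 were lower in CD10- cells (10.8% of all genes), and in CD10+ cells 10 were lower (7.64%) and 1 higher (9.52%). With quantile normalization 13 and 12 were lower (11.2% and 9.23% of all genes) and 0 higher. UQCRC1 was -0.72 in CD10- cells (limma adjusted p = 0.0200) and -0.73 in CD10+ cells (limma adjusted p = 0.0236). Without the first MC26 CD10+ array the CD10+ difference was -0.49 and no longer passed (limma adjusted p = 0.176), while the averaged one was -0.51 (limma adjusted p = 0.00555). The CD10- difference did not pass without the second MCF10A-CT CD10- array (-0.51, limma adjusted p = 0.225) or without either MC26 CD10- array, nor the CD10+ one without either MCF10A-CT CD10+ array.

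UQCRB, which binds ubiquinone in complex III, was at 11.92 and 11.78 in unsorted, 12.08 and 12.36 in CD10- and 12.16 and 12.10 in CD10+ MCF10A-CT cells. In MC26 it was at 11.88 and 11.89, 11.81 and 11.78, and 11.51 and 11.80. The lines did not overlap in either sorted population and overlapped in unsorted cells. The averaged difference was -0.29 (SE 0.08, limma adjusted p = 0.0161), and it was -0.43 in CD10- and -0.47 in CD10+ cells. Averaged, it did not pass without the second MCF10A-CT CD10- array (limma adjusted p = 0.0599). Each of its 3 probe sets above the floor gave a lower level in MC26, by -0.29, -0.37 and -0.49.

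Of complex IV, COX7C is a small nuclear-encoded subunit. It was at 12.51 and 12.58, 12.59 and 12.84, and 12.67 and 12.58 in unsorted, CD10- and CD10+ MCF10A-CT cells. In MC26 it was at 12.47 and 12.27, 12.33 and 12.29, and 12.04 and 12.36. All MC26 arrays lay below their MCF10A-CT counterparts, and the averaged difference was -0.34 (SE 0.08, limma adjusted p = 0.00599). COX6A1 fell by 0.32 (SE 0.09) on the log2 scale and COX6C by 0.20 (SE 0.07). COX5B, -0.32 (SE 0.10), and COX4I1, -0.24 (SE 0.08), a regulatory subunit, depended on the probe set. Their brighter probe sets, 3 and 2, were lower in MC26, and a dim one of each, at 6.19 and 5.55, gave 0.17. In unsorted cells COX6C was at 12.59 in MCF10A-CT and 12.61 in MC26, and COX5B at 11.761 and 11.795, so neither was lower there. COX6A1 (12.51 and 12.38) and COX4I1 (12.34 and 12.30) were lower in unsorted MC26 cells.

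NDUFB5, an accessory subunit of complex I, was at 11.09 and 11.12, 11.35 and 11.48, and 11.34 and 11.23 in unsorted, CD10- and CD10+ MCF10A-CT cells. Its MC26 values were 11.20 and 10.95, 10.96 and 10.85, and 10.45 and 10.96. The lines overlapped in unsorted cells and did not in the sorted ones, and the averaged difference was -0.38 (SE 0.10, limma adjusted p = 0.0122). NDUFV1, which carries the NADH-binding site of complex I, fell by 0.32 (SE 0.11) on the log2 scale, and SDHA by 0.34 (SE 0.12). In unsorted cells NDUFV1 was at 9.71 in both lines, and SDHA at 9.69 in MCF10A-CT and 9.28 in MC26. With arrays left out in turn, UQCRC1, COX7C, NDUFB5 and COX6A1 passed in 18 of 18 fits, UQCRB in 17, COX5B in 14, COX4I1 in 11, NDUFV1 in 10, SDHA in 7 and COX6C in 3. Without the first MC26 CD10+ array, 5 genes passed: UQCRC1, COX7C, NDUFB5, COX6A1 and UQCRB. Between 5 and 6 passed as lower, and none as higher, without the second array of MCF10A-CT or MC26 unsorted cells, of MCF10A-CT CD10- or CD10+ cells or of MC26 CD10- cells. Without the first MCF10A-CT CD10+ array 5 were lower and 2 higher, and without the first MCF10A-CT CD10- array 11 were lower and 1 higher.

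**Figure D2:**
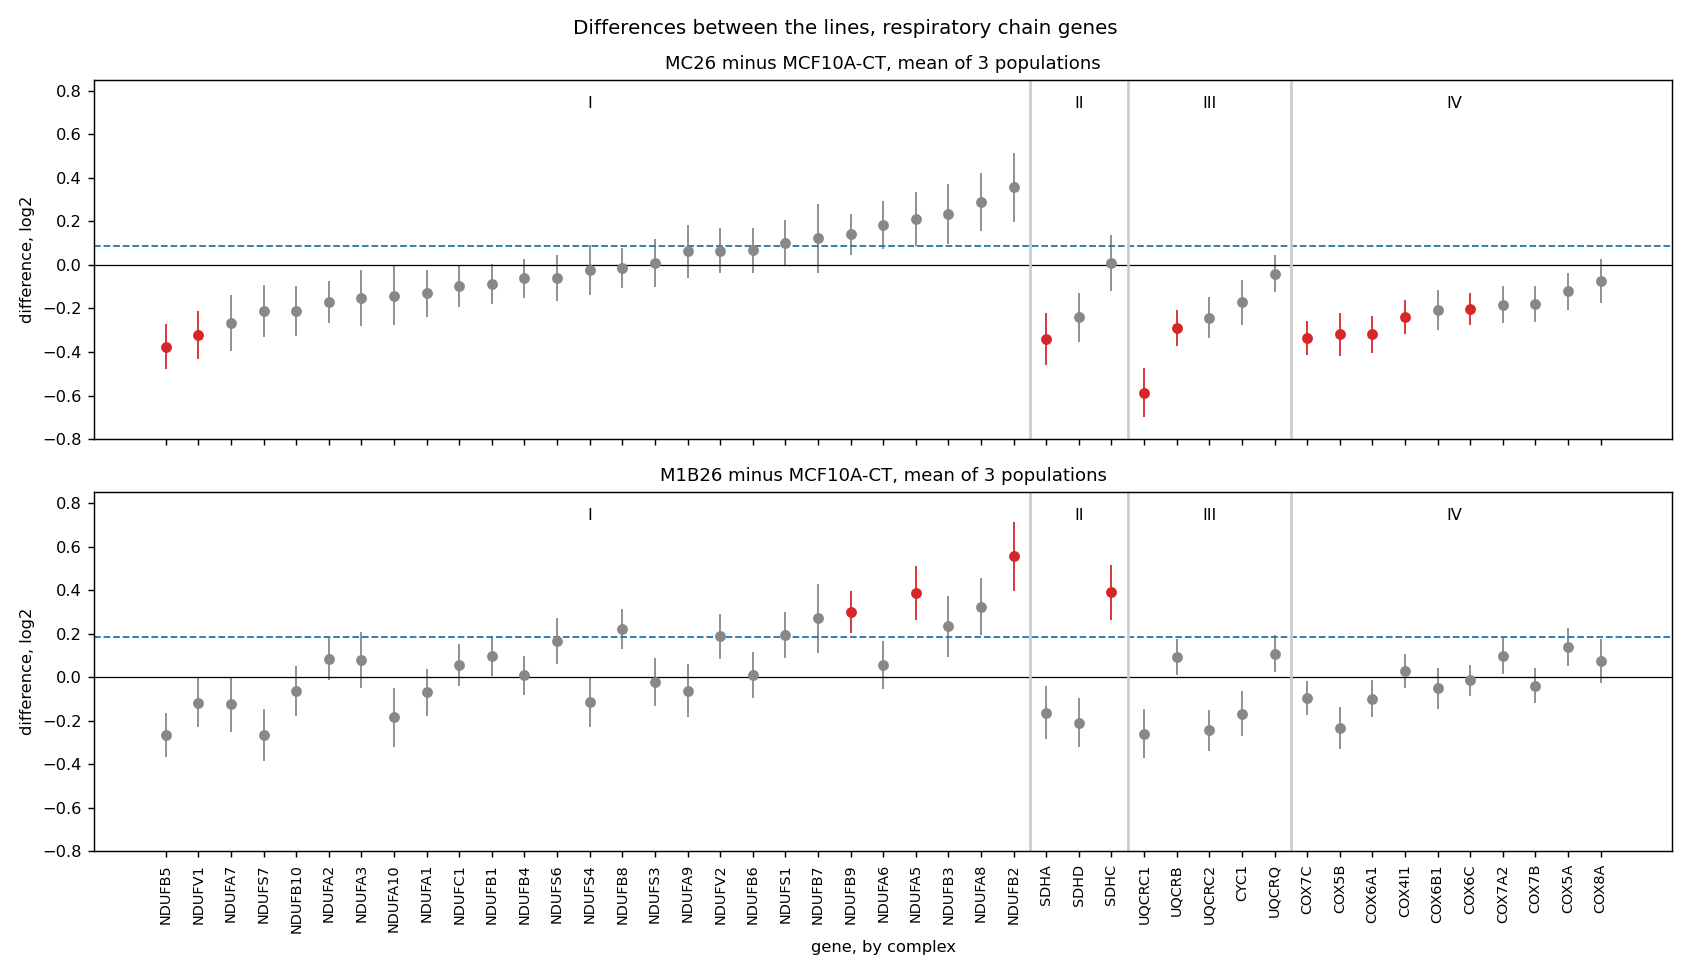
Difference of each respiratory gene between lines, averaged over 3 populations, on the log2 scale, with its standard error (bars); red points passed the limma test, grey ones did not, the dashed line is the median over all genes tested and Roman numerals mark the complexes. In MC26 all 15 genes of complexes III and IV lie below 0, and in M1B26 the red points are NDUFB2, NDUFB9, NDUFA5 and SDHC, whereas with arrays centred 19 other calls, all lower, were made there and these 4 did not pass.

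**Figure D3:**
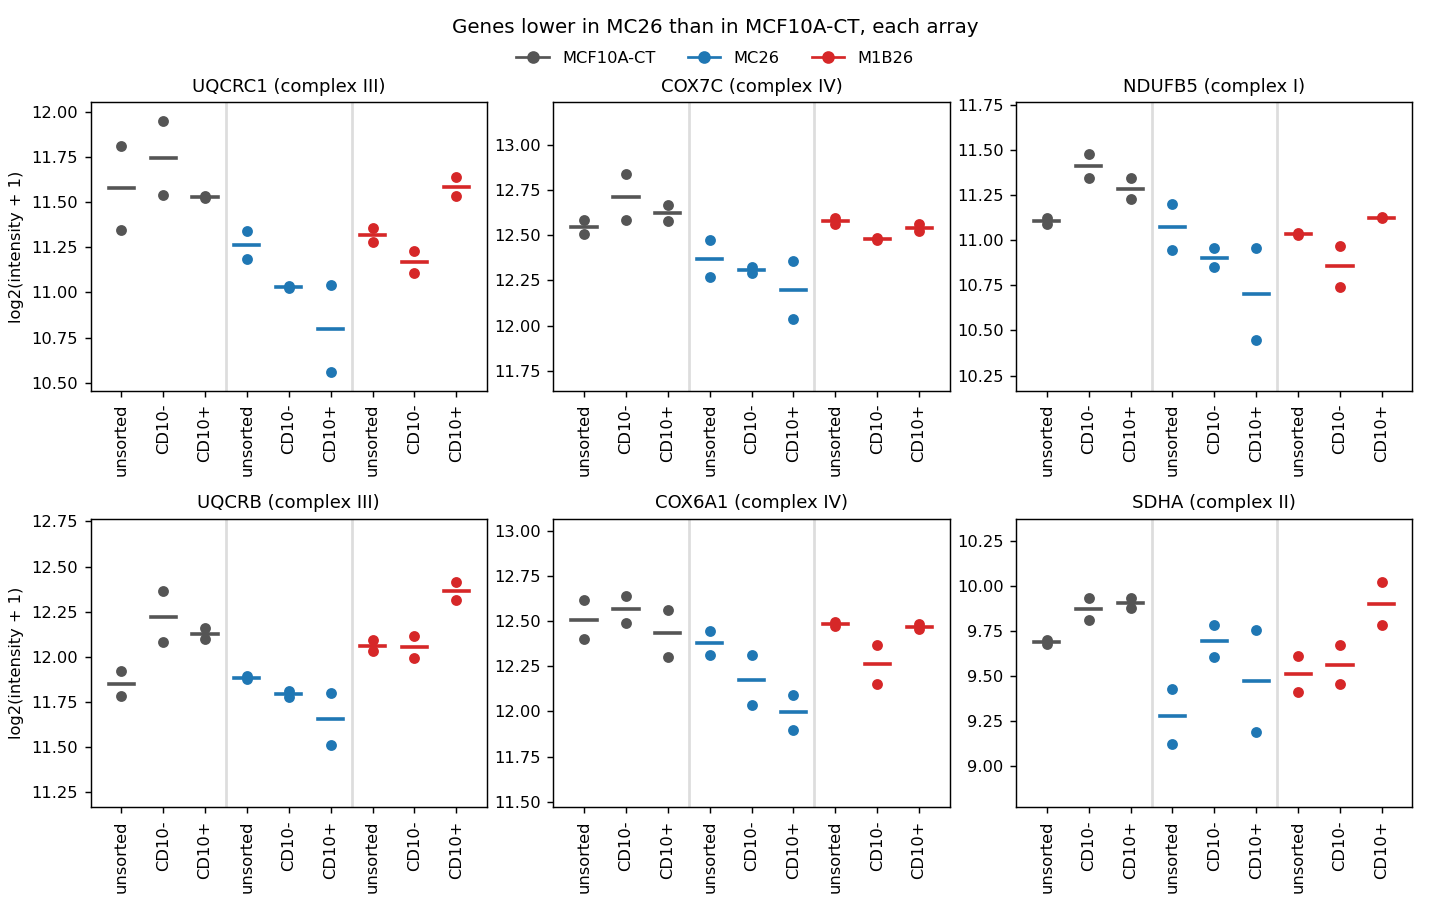
Level of 6 genes that were lower in MC26 than in MCF10A-CT, as log2(intensity + 1) on each array; points are the 2 replicates of a group and bars their mean, and every panel spans 1.6 log2 units. UQCRC1 in MC26 lies at 10.56 to 11.34 and in MCF10A-CT at 11.35 to 11.95.

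The remaining genes of oxidative phosphorylation were read beside the members. Of 17 measured ATP synthase subunits, 2 were lower in MC26 and 0 higher (ATP5MC2, of the membrane ring, -0.44; ATP5F1A, of the catalytic head, -0.25), with a median of -0.13. Of 6 complex I subunits outside the list, NDUFB11 was lower (-0.37), and of 5 of complexes III and IV, UQCR11 was lower (-0.27). Of 48 assembly factors of complexes I to IV, 9 were higher (18.8%) and 4 lower (8.33%), near the shares over all genes. COX20, a chaperone for a complex IV core subunit, was higher by 0.91 (SE 0.14) and NDUFAF3, a complex I assembly factor, by 0.69 (SE 0.12). Of 74 mitochondrial ribosomal proteins 21 were higher and 0 lower (MRPL17, 0.78), while of 50 cytosolic ribosomal proteins 32 were lower and 0 higher (RPL12, -0.39). Regulators of mitochondrial genes gave 3 higher and 1 lower of 16, with GABPB1, a GABP subunit, at 0.99 and LRPPRC, which stabilises mitochondrial mRNAs, at -0.33. The tricarboxylic acid cycle gave 1 higher (IDH3A, 0.61) and 2 lower (MDH2 at -0.37 and CS, citrate synthase, at -0.38) of 13. The glycolysis list gave 1 higher of 18, PDK1 (0.62), which encodes a kinase of pyruvate dehydrogenase and not a glycolytic enzyme. Markers moved in the same comparison. Epithelial markers were lower for 3 of 4 (EPCAM, -1.15; CDH1, -0.56; KRT8, -0.41), basal ones higher for 1 of 3 (KRT14, 2.11) and mesenchymal ones lower for 1 of 3 (VIM, -0.27), and their part in the result was not tested. After centring, the higher and lower counts in MC26 were 0 and 10 for ATP synthase, 10 and 5 for assembly factors, 21 and 3 for the mitochondrial ribosome, 0 and 46 for cytosolic ribosomal proteins, 3 and 2 for regulators, 1 and 5 for the tricarboxylic acid cycle and 1 and 4 for glycolysis. The shares over all genes were then 18.4% and 15.5%. Quantile normalization gave 0 and 4 for ATP synthase, 5 and 9 for assembly factors and 11 and 5 for the mitochondrial ribosome. It gave 0 and 10 for cytosolic ribosomal proteins, 1 and 3 for regulators and 1 and 4 for the tricarboxylic acid cycle. Glycolysis gave 6 and 2 with it, beside 15.8% and 16.3% of all genes.

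The count of genes depended on how arrays were scaled, and the MC26 direction did not. With each array centred on its tested genes, 19 of 45 respiratory genes were lower in MC26 and 0 higher, where 15.5% of all genes were lower. These were 8 of 10 in complex IV, 3 of 5 in complex III, 2 of 3 in complex II and 6 of 27 in complex I. With quantile normalization 18 were lower and 0 higher, where 16.3% of all genes were lower.

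In M1B26 against MCF10A-CT the direction itself depended on the scaling. On the deposited scale 4 of 45 genes were higher in M1B26 and 0 lower (NDUFB2, NDUFB9 and NDUFA5 of complex I and SDHC of complex II), where 27% of all genes were higher and 7.61% lower, whereas with arrays centred on the tested genes 0 were higher and 19 lower, where 14% of all genes were lower. With quantile normalization 0 were higher and 24 lower, where 14.2% of all genes were lower. The member median was 0.01, -0.19 and -0.22 under the 3 scalings, and that of all genes 0.19, -0.01 and 0.00. After centring, NDUFB5 (-0.46), UQCRC2, a core subunit of complex III (-0.44), COX5B (-0.43), NDUFS7 (-0.46) and SDHD (-0.41) had the smallest p-values.

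NDUFB2, an accessory subunit of complex I, was at 11.46 and 11.62 in unsorted, 11.15 and 10.35 in CD10- and 11.12 and 10.31 in CD10+ MCF10A-CT cells. In M1B26 it was at 11.30 and 11.72, 11.67 and 11.37, and 11.58 and 11.69. The second replicates of sorted MCF10A-CT cells were the lowest of all 18 arrays, and the averaged difference was 0.56 (SE 0.16, limma adjusted p = 0.0137); with centring it was 0.36 and did not pass (limma adjusted p = 0.0513). SDHC was at 10.32 and 9.81, 10.47 and 10.31, and 10.44 and 10.07 in MCF10A-CT and at 10.12 and 10.38, 10.77 and 10.57, and 10.88 and 11.06 in M1B26, a difference of 0.39 (SE 0.13). The lines overlapped in unsorted cells and not in the sorted ones. The other SDHC probe sets above the floor gave smaller differences, of 0.25, 0.26, 0.07, 0.06 and 0.16. NDUFB9 (0.30, SE 0.09) and NDUFA5 (0.39, SE 0.12), both of complex I, did not pass after centring, with 0.10 and 0.19. Within CD10- cells, a comparison added after the data were seen, 3 members were lower (6.66% of all genes) and 2 higher (19.8%) on the deposited scale. COX5B (-0.59), NDUFB5 (-0.56) and UQCRC1 (-0.58) were lower in M1B26, and NDUFB9 (0.49) and NDUFB2 (0.77) higher. But with centring 18 members were lower (12.1% of all genes) and with quantile normalization 21 (12%). None was higher under either, NDUFB2 and NDUFB9 not passing. Without the second MCF10A-CT CD10- array none of these 5 passed: NDUFB2 was at 0.37 (limma adjusted p = 0.443), UQCRC1 at -0.37 (limma adjusted p = 0.326), NDUFB5 at -0.49, NDUFB9 at 0.39 and COX5B at -0.60. Within CD10+ cells 4 were higher and 0 lower on the deposited scale (21.1% of all genes were higher): NDUFB2, SDHC, NDUFB8 and NDUFA5. With centring 9 were lower (10.2% of all genes) and with quantile normalization 12 (10.6%). Under both 0 were higher, and none of these 4 passed. Nor did any of the 4 pass without the second MCF10A-CT CD10+ array.

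Other lists in M1B26 are given on the deposited scale first and after centring second. Glycolysis gave 9 of 18 genes higher and 0 lower, then 5 and 1 (PGAM1, 0.66; PGK1, 0.51, on the deposited scale). ATP synthase gave 1 of 17 higher and 0 lower, then 0 and 4, and cytosolic ribosomal proteins 2 of 50 higher and 0 lower, then 0 and 1. Mitochondrial ribosomal proteins gave 24 of 74 higher (32.4%) and 0 lower, then 6 and 5. Assembly factors gave 13 of 48 higher (27.1%, the share over all genes being 27%) and 3 lower, then 8 and 8. Quantile normalization gave 6 higher and 1 lower for glycolysis, 0 and 7 for ATP synthase and 0 and 7 for cytosolic ribosomal proteins. It gave 5 and 7 for mitochondrial ribosomal proteins and 7 and 8 for assembly factors. Epithelial markers were lower for 2 of 4 on the deposited scale (CDH1 at -2.27 and EPCAM at -1.50). KRT8 and KRT18 did not pass, and the highest epithelial value was 0.18. Basal markers were higher for 1 of 3 (KRT14, 1.40). Mesenchymal ones were higher for 2 of 3 (DCN at 2.88 and VIM at 0.27), and for 1 of 3 after centring. The part of the markers in the members' values was not tested.

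M1B26 and MC26 were set against each other, a comparison added after the data were seen. On the deposited scale 2 of 45 genes were higher in M1B26 and 0 lower, UQCRB (0.38, SE 0.08, limma adjusted p = 0.00996) and COX4I1 (0.27, SE 0.08, limma adjusted p = 0.0466), where 6.56% of all genes were higher and 1.53% lower, and 0 passed with either of the other scalings. The member median was 0.15 and that of all genes 0.09. For COX4I1 a dim probe set gave -0.62, so its direction rests on the 2 bright ones. For UQCRB a probe set at 11.50 also gave 0.38, and a dimmer one at 7.97 gave 0.0016. Of the cytosolic ribosomal proteins, 44 of 50 were higher in M1B26 than in MC26, and 6 after centring.

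CD10+ and CD10- cells of a line were compared to ask whether the CD10 sort divides cells by these genes. No respiratory gene passed in control cells (0% of all genes), MC26 (0%) or M1B26 (6.5%), nor in the average over lines (1.14%). In MCF10A-CT and MC26 MME itself, the gene of the sort, did not pass, so the test could not decide the question there. The ordinary linear model called no respiratory gene either, and at an unadjusted p under 0.05 there were 0, 0, 3 and 0 members. The medians over members were -0.12, -0.13 and 0.07 in the lines in that order, against -0.05, -0.10 and 0.01 over all genes. In MCF10A-CT 44 of 45 genes had values below 0 (7336 of all 12171), and in MC26 also 44 (8921 of all), without any single gene passing. In MCF10A-CT this rested on the second CD10+ array: without it the median was 0.0043 with 23 genes above and 22 below 0. The MC26 values rested on its first CD10+ array: without it the median was 0.05 with 37 genes above 0, and without the second it was -0.30 with 45 below 0. In M1B26, without the second CD10- array, the median was 0.00061 with 23 genes above 0. After centring, 41, 28 and 24 genes lay below 0 in the same order of lines.

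In MCF10A-CT the smallest p-values were those of COX5A (-0.22), NDUFC1 (-0.23), COX6C (-0.16) and UQCRC1 (-0.22), and none passed. In MC26 they were those of NDUFB8 (-0.25), COX6A1 (-0.18), UQCRC1 (-0.23) and NDUFB5 (-0.20). In M1B26 COX5B, a zinc-binding subunit of complex IV, was at 11.56 and 11.40 in CD10- and at 12.05 and 11.80 in CD10+ cells. These arrays did not overlap, and the difference of 0.45 (SE 0.17) did not pass (limma adjusted p = 0.141). UQCRC1 was at 11.11 and 11.23 in CD10- and at 11.53 and 11.64 in CD10+ cells of M1B26, a difference of 0.42 (SE 0.19, limma adjusted p = 0.254). UQCRB (0.31) and NDUFA3 (0.46) followed, and over the 3 lines NDUFA9 (-0.20), NDUFC1 (-0.15), COX5A (-0.13) and NDUFA6 (-0.15) had the smallest p-values.

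The CD10 difference was also compared between lines. No member passed for MC26 against MCF10A-CT (0% of all genes) or for M1B26 against MCF10A-CT (1.38%), with 0 and 3 members at an unadjusted p under 0.05 and none by the ordinary linear model. The CD10 difference of M1B26 minus that of MCF10A-CT had a median of 0.18 in members, against 0.05 over all genes. In M1B26 42 of 45 genes had a CD10 difference above that of MCF10A-CT (6581 of all 12171), and 33 after centring. Without the second MCF10A-CT CD10+ array 28 genes lay above it. UQCRC1 (0.63, SE 0.28), NDUFA3 (0.70, SE 0.31), COX5B (0.52, SE 0.24) and UQCRB (0.40, SE 0.20) led this list, and UQCRC1 had a limma adjusted p of 0.393. For MC26 the values closest to passing were those of SDHA (-0.26), NDUFA10 (-0.23), NDUFA7 (0.18) and NDUFA3 (0.15).

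**Figure D4:**
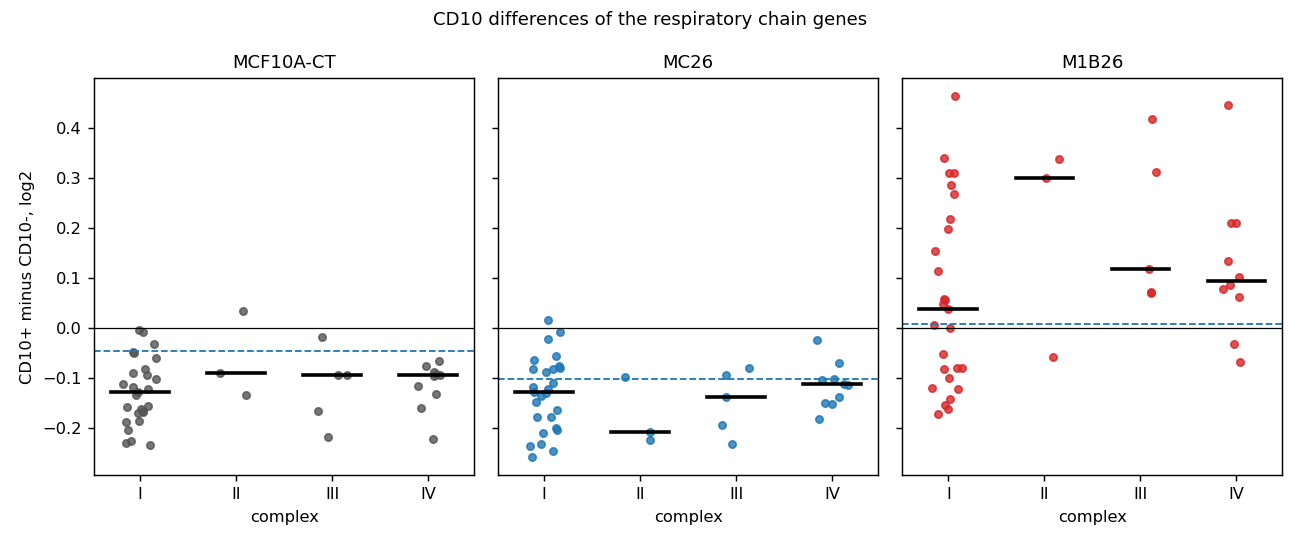
CD10+ minus CD10- difference of each respiratory gene (points) in each line, on the log2 scale, by complex; black bars are medians over the genes of a complex and the dashed line is the median over all genes tested. Below 0 lie 44 of 45 points in MCF10A-CT and in MC26 (22 and 8 without 1 CD10+ array of each), and 31 of 45 lie above 0 in M1B26, where after centring of arrays 24 lie below 0.

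Between sorted and unsorted cells, members passed on the deposited scale at a share no higher than that over all genes. More members passed with arrays centred or quantile normalized, and the share over all genes was not set beside those counts. Over the 3 lines 5 of 45 members passed, where 15.2% of all genes did. NDUFV1 was higher in sorted cells (6.81% of all genes were higher), and NDUFB8, NDUFB9, NDUFA8 and NDUFA2 were lower (8.44%). All 5 are in complex I, which holds 27 of the 45 members, and after centring genes of complexes II and III passed as well. The labels say that unsorted cells were frozen after trypsin and that sorted cells were stained and sorted, and the 3'/5' signal ratio of ACTB, a sign of RNA quality, was 1.56 to 2.14 on unsorted and 1.11 to 1.34 on sorted arrays. The part of handling and of this ratio in the result was not tested.

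NDUFV1 ran from 9.53 to 9.82 over the 6 unsorted arrays (median 9.71) and from 9.71 to 10.59 over the 12 sorted ones (median 10.31). Only the lowest sorted array, the first of MC26 CD10+, fell within the unsorted range, and the difference was 0.55 (SE 0.10, limma adjusted p = 0.00182). NDUFB8, an accessory subunit, ran from 10.64 to 11.07 on unsorted and from 10.33 to 10.89 on sorted arrays, a difference of -0.30 (SE 0.08, limma adjusted p = 0.0187). NDUFA8 ran from 10.35 to 10.73 and from 9.37 to 10.55 (-0.38, SE 0.11), with its lowest values in sorted MCF10A-CT cells. Fitted line by line, a step not followed up with other settings, 6 members passed within MCF10A-CT (22.2% of all genes), lower for NDUFA8 (-0.83), NDUFB2 (-0.81), NDUFA5, NDUFB8 and NDUFB9 and higher for NDUFV1 (0.74). Within M1B26 NDUFV1 alone passed (0.67; 4.21% of all genes), and within MC26 limma called 0 (0.822% of all genes; 7 members at an unadjusted p under 0.05). The sorting difference against that of MCF10A-CT passed for 0 members in MC26 (6.07% of all genes) and for 0 in M1B26 (11.9%), with 6 and 6 members at an unadjusted p under 0.05. NDUFB9 (-0.27, SE 0.08) and NDUFA2 (-0.27, SE 0.08) were the other two. NDUFV1 passed in 18 of 18 fits with an array left out, NDUFB8 in 15, NDUFA8 and NDUFB9 in 6 and NDUFA2 in 5. After centring SDHC (0.31) and SDHA (0.28) of complex II also passed as higher, and UQCRQ (-0.19) and NDUFB1 (-0.20) as lower.

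**Figure D5:**
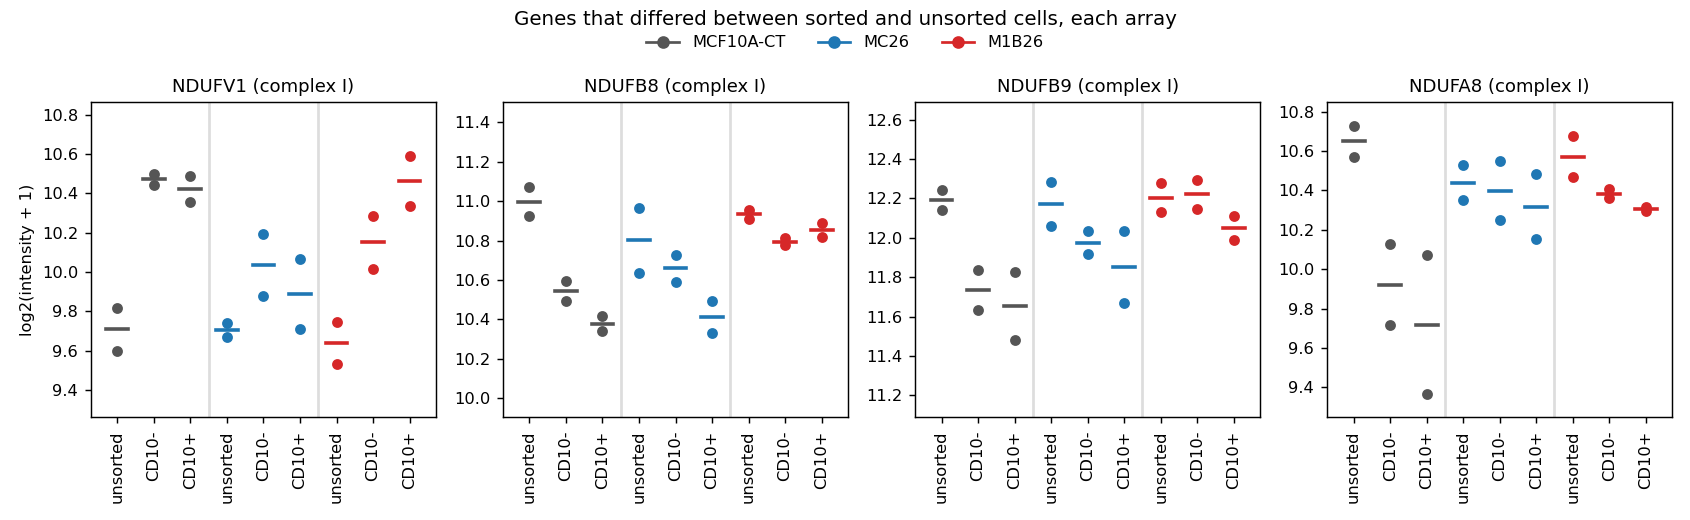
Level of 4 complex I genes that differed between sorted and unsorted cells, as log2(intensity + 1) on each array; points are the 2 replicates of a group and bars their mean, and every panel spans 1.6 log2 units. NDUFV1 lies at 9.53 to 9.82 in unsorted cells of the 3 lines, and at 10.36 to 10.50 in sorted MCF10A-CT cells.

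The probe sets of a gene did not always give the same sign. Of the 45 genes, 19 had more than 1 probe set above the floor. All probe sets of a gene had the same sign for 9 of these 19 in MC26 against MCF10A-CT, for 8 in M1B26 against MCF10A-CT and for 8 in sorted against unsorted cells. UQCRC1, NDUFB5, SDHA, COX6C, NDUFB9 and NDUFA8 have a single probe set here, so no second one bears on them. Those of SDHA and NDUFB9 are of a kind that may bind related transcripts. For NDUFV1 and NDUFA5 the second probe set lay below the floor.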

How the data were processed

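RNA of 18 samples was hybridised to Affymetrix HG-U133 Plus 2.0 arrays. The deposited values are probe set intensities on a linear scale, made by the authors with Affymetrix Expression Console and MAS5 per the labels, whereas the study's methods name RMA with quantile normalization; the median intensity was 16.65 on every array and the upper quartile 95.1 to 123.6, so the arrays were scaled and not quantile normalized. Intensities became log2(intensity + 1). Each gene was taken from its brightest probe set naming 1 gene, and genes over the median of all non-control probe set means (3.93) were tested, 12171 of 19775. limma 3.58.1 in R 4.3.3 (lmFit, eBayes with trend, two-sided, 9 group means, 9 residual degrees of freedom) gave contrasts, with Benjamini-Hochberg adjustment over all genes tested, and calls were made at an adjusted p under 0.05. The number of arrays limits the precision, and the fit was tested on simulated data.

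The members, gene lists and comparisons were chosen with earlier results of these data known. Genes were named where they passed, or as the 4 with the smallest p-values where fewer than 4 passed, and by level and range within each complex. Of 22 comparisons fitted, 5 (sorting within lines and its differences between lines) were dropped after their results were seen, largely for length, and are given as counts without alternatives. The floor was first set over all probe sets and changed to leave out controls, and the random block was adopted, after output was seen. Deviations of same-numbered CD10- and CD10+ arrays correlated in MCF10A-CT (r = 0.63) and MC26 (r = 0.36), which pairs them by the data and not by the labels. In M1B26 r was 0.18, close to the highest value of unsorted with sorted arrays (r = -0.01 to 0.12), so no pairing is shown there. Alternatives were the added value, the filter, scaling, choice of probe set, replicate block, groups fitted, an ordinary linear model and leaving out each array. Probe sets naming several genes were left out.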

Additional observations from a re-analysis of the deposited data

How the results depend on the processing

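For MC26 minus MCF10A-CT, 10 members passed, against 18 with quantile normalization, 19 with arrays centred, and 6 each with the mean of all probe sets, with the replicate block, with only the groups compared, and without probe sets that may bind related transcripts (5 lower and 1 higher of 38); without 1 array the count was 5 to 12. Without those probe sets COX5B was at 0.17 and COX4I1 at 0.17, and with the mean of probe sets COX4I1 was at 0.077 and NDUFV1 at 0.011. For M1B26 minus MCF10A-CT, 4 passed, against 24 (median -0.22) with quantile normalization, 19 (median -0.19) with centring and 2 with the replicate block; without 1 array the count was 1 (MCF10A-CT unsorted replicate 2) to 7 (MCF10A-CT CD10- replicate 1). NDUFA5 was at -0.15 with the mean of probe sets. For M1B26 minus MC26, 2 passed, against 1 with no filter, the block, only the groups compared, or without those probe sets (lower), and 0 with quantile normalization (median -0.045), centring (median 0.025) or the mean; without 1 array it was 1 (MC26 unsorted replicate 2) to 5 (MC26 CD10+ replicate 2), and COX4I1 was at -0.62 without those probe sets and -0.065 with the mean. For sorted minus unsorted, 5 passed, against 3 with no filter, 10 with quantile normalization and 9 with centring or the mean; without 1 array it was 1 (MCF10A-CT unsorted replicate 1) to 9 (MCF10A-CT CD10+ replicate 1). For CD10 in M1B26, 1 passed with quantile normalization (higher) and 1 without those probe sets (lower). The CD10 median in MCF10A-CT was 0.0043 without its second CD10+ array. The CD10 median in MC26 ran from -0.30 to 0.052 and its difference from MCF10A-CT from -0.19 to 0.17, without the second or the first MC26 CD10+ array. Within populations, COX5B in MC26 CD10- was at 0.043 without those probe sets, and in M1B26 CD10+ the mean gave NDUFB8 -0.052 and NDUFA5 -0.21. The replicate block, also on sorted arrays alone, called 0 members for CD10. The causes were not tested, beyond fewer members being measured without those probe sets. Dim probe sets weigh as much as bright ones in the mean. With 2 arrays a group, single calls within populations rest on few arrays.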
